A study of Mus musculus with 33 samples.

Results

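Livers of vehicle-injected mice that had been refed for 12 h were compared with livers of vehicle-injected mice that were still fasted. The comparison rests on 6 of the 33 arrays of the series, 3 per group, chosen by their labels as the vehicle group at 0 h and the vehicle group refed for 12 h. All animals were adult male mice, and the strain is not given in the sources used here. They were fasted for 22 h, injected with vehicle (0.9% NaCl with 2% ethanol) and 2 h after the injection the 0 h group was killed, while the other group received food ad libitum and was killed after 12 h. Liver RNA of each mouse was hybridised to 1 Affymetrix MG-U74Av2 array of 12488 probe sets, and 6568 probe sets called present on at least 3 of the 33 arrays were tested. The other 27 arrays enter the fit, where they share in the estimate of the spread, and some stand beside the comparison. They are vehicle mice refed for 3 or 6 h (n = 3 each), mice given rapamycin at 10 mg/kg in place of vehicle at 0, 3, 6 and 12 h (n = 3 each), mice fasted for 24 h without an injection (n = 5), and mice that were not fasted and were killed 24 h after an injection of vehicle or rapamycin (n = 2 each). The purpose of the series was to learn how rapamycin, an inhibitor of the nutrient-sensing kinase complex mTORC1, alters the liver transcriptome. The vehicle mice give the refeeding response without the drug. The refed mice were killed 12 h later after the injection than the 0 h mice, so time since injection and refeeding cannot be told apart.

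A fasted liver exports glucose made from amino acids and glycerol, oxidises fatty acids and makes ketone bodies, under glucagon, glucocorticoid and the fatty acid sensor PPARα. After a meal insulin rises, the gluconeogenic programme is switched off, and the SREBP transcription factors drive the synthesis of cholesterol and fatty acids. The liver also makes most plasma proteins, which enter the endoplasmic reticulum and leave through the Golgi.

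The 2 groups differed in a property of the arrays before any gene was considered. On the 0 h arrays 36.9% to 40.8% of all intensities lay at or below 0, against 24.6% to 27.4% on the 12 h arrays. With the border at 31%, the 33 arrays formed a set of 16 with many such values, which holds every 0 h array, and a set of 17 with few, which holds every 12 h array. Array set and refeeding therefore cannot be told apart within these 6 arrays. Each probe set was tested in 1 model of all 33 arrays, on log2 of the intensity with values under 6.31 raised to 6.31. Of the 6568 probe sets 1705 (26%) rose at 12 h and 611 (9.3%) fell at an adjusted p under 0.05, and the log2 changes of all 6568 had a median of 0.24. Scaling every array to 1 trimmed mean moved that median to -0.004 and the split to 1111 rises and 1253 falls, and quantile normalization gave 0.01 with 1206 rises and 1019 falls. With values under 30 raised to 30 the median was 0. For the hepatocyte markers below the median was -0.32 in the first fit, -0.05 after quantile normalization and -0.62 with 1 trimmed mean. A small log2 change below therefore depends on the scaling, and no single shift applies to all genes. Calls were also taken from 3 further fits, 1 with a term for the array set, 1 with a floor of 30 and 1 with both, and 514 probe sets (7.83%) rose and 254 (3.87%) fell in all 4 fits. The term rests on the 6 rapamycin arrays at 3 and 6 h, the only groups that hold both sets. Those called in all 4 fits were brighter, with a median intensity of 164 for rises, than those called in the first fit but not in all 4 (40.0). By gene, with the brightest probe set of each, 1309 of 5001 rose and 476 fell, 407 and 204 of them in all 4 fits. The called genes of the named set have 50 other tested probe sets, of which 29 were called in the same direction, 19 were not called (among them those of Lpin2, Pcx, Asl, Igfals and Igf1) and 2, of Sar1b and Gstm5, were called in the opposite direction. The labels do not say which mice were handled or which RNA was processed together, so p-values measure the spread between the samples as labelled, and 3 arrays per group limit the precision.

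The 9 tested hepatocyte markers summed to an intensity of 27145 to 29408 per array at 0 h and 20678 to 22928 at 12 h. Such bright sums are in keeping with the tissue label, although the lowest value of any marker was 11. Alb, the main plasma protein, read 6347, 6707 and 7580 at 0 h and 5245, 5593 and 5423 at 12 h. Apoa1, the main protein of high-density lipoprotein, read 6006, 7235 and 6683 at 0 h and 4730, 5141 and 4584 at 12 h. Both fell by small amounts, -0.34 ± 0.10 and -0.46 ± 0.12 on the log2 scale (adjusted p = 0.0104 and 0.00432), although without 0 h replicate 3 the value for Alb was -0.27 (adjusted p = 0.0565), and neither fall held with the array set as a term (adjusted p = 0.245 and 0.348). Of 9 hepatocyte markers 3 rose and 5 fell, 2 and 1 in all 4 fits. Among all probe sets 26% rose and 9.3% fell, 7.83% and 3.87% in all 4 fits. After quantile normalization 2 markers rose and 1 fell. The rises were Ttr (329, 316 and 413 at 0 h, 1004, 865 and 1010 at 12 h), Asgr2 (1.33) and Asgr1 (0.31). Without 12 h replicate 2 only 1 rose, as Asgr2 (adjusted p = 0.0793) and Asgr1 (adjusted p = 0.127) lost their calls. Without 0 h replicate 2 the value for Asgr2 was 0.29 (adjusted p = 0.551). Hnf4a, the transcription factor of hepatocyte identity, did not pass (-0.13 ± 0.18). 

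The tested markers of other liver cells formed short lists, and their part in the results below was not tested. Counts here stand against 26% of all probe sets that rose and 9.3% that fell, 7.83% and 3.87% in all 4 fits. The 12 tested markers of Kupffer cells, the resident macrophages, summed to 1126 to 1233 per array at 0 h and 1082 to 1126 at 12 h. None rose and 1 fell, the lysosomal protease Ctss (-0.76 ± 0.25, adjusted p = 0.0206), with an adjusted p of 0.0779 without 0 h replicate 2, 0.0502 without 12 h replicate 1 and 0.0542 without 12 h replicate 2, and 1 marker rose without 0 h replicate 3, 12 h replicate 2 or 12 h replicate 3. Clec4f, the defining Kupffer cell lectin, read 198, 207 and 192 at 0 h and 133, 131 and 159 at 12 h and did not pass (-0.50 ± 0.28), and the macrophage marker Adgre1 stayed at or below 30 on all 6 arrays. The 12 endothelial markers summed to 487 to 583 at 0 h and 711 to 751 at 12 h, with 2 rises (1 without 0 h replicate 1, 12 h replicate 2 or 12 h replicate 3) and 1 fall, and the defining markers Pecam1 and Vwf at or below 30 throughout. Lyve1, the hyaluronan receptor of sinusoidal and lymphatic endothelium, read 47, 62 and 24 at 0 h and 6, 6 and 1 at 12 h, a log2 change of -2.71 ± 0.37 (adjusted p = 5.1e-06) that the floor of 30 reduced to -0.56. Eng, an endothelial co-receptor for TGF-β, rose by 1.19 ± 0.20 in all 4 fits. The 6 stellate cell markers summed to 1401 to 1541 at 0 h and 1021 to 1279 at 12 h, with 2 rises (1 without 0 h replicate 3, 12 h replicate 1 or 12 h replicate 3) and 1 fall (2 without 12 h replicate 1). Of 2 lymphocyte markers Ms4a1, a B cell surface protein, fell by 0.89, Ighm did not pass, and the T cell genes Cd3e, Cd3d and Cd8a stayed at or below 30. None of 3 neutrophil and 3 pancreatic markers passed, although 1 pancreatic marker fell without 0 h replicate 2. The 1 bile duct marker tested rose, but not in all 4 fits, with at most 6 on any 0 h array and 12 to 28 on the 12 h arrays. Of 3 erythroid markers 1 fell, Hba-a1, a haemoglobin chain, which read 2926, 2069 and 1035 at 0 h and 624, 687 and 762 at 12 h. Its 0 h arrays spread widely, all above the 12 h arrays, and the change was -1.42 ± 0.25 (adjusted p = 0.00013). In whole tissue, fewer cells of a type and less RNA per cell cannot be told apart.

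Cholesterol synthesis rose along nearly its whole length, and it held the largest rises of the comparison, Idi1 and Fdps. All 5 mevalonate and isoprenoid genes tested (of 6 on the array) rose, 4 of them in all 4 fits, and 11 of 12 genes from squalene to cholesterol rose, 10 of them in all 4 fits, against 26% and 7.83% of all probe sets. Their median log2 changes were 4.33 and 4.29. A term for the array set gave medians of 4.64 and 4.51.

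Hmgcs1, the synthase that makes HMG-CoA at the start of the pathway, read 89, 65 and 204 at 0 h and 1863, 1905 and 1953 at 12 h. All 12 h arrays lay at least 9 times as high as the highest 0 h array, and the log2 change was 4.17 ± 0.35 (SE, adjusted p = 3.8e-09). Idi1, the isomerase that makes the second 5-carbon building block, read 5, 9 and 36 at 0 h and 1804, 1564 and 1904 at 12 h. Its groups did not overlap, and its log2 change of 7.11 ± 0.52 (adjusted p = 7.4e-10) in the first fit was the largest among genes that held in all 4 fits. The 0 h values of Idi1 lay near the floor, so this size and rank depend on the floor used. Fdps, which joins the 5-carbon units into farnesyl diphosphate, read 6, 23 and 54 at 0 h and 2074, 2240 and 2244 at 12 h, a change of 6.78 ± 0.55 (adjusted p = 2.5e-09), and of its 2 further probe sets 1 was also called as a rise. Mvd, the decarboxylase that yields the first 5-carbon unit, read 8, 4 and 5 at 0 h and 135, 144 and 134 at 12 h and rose to at least 4.59-fold above 30. Such a bound takes 30 as the level of the lower group wherever all its arrays lay at or below 30. Mvk, mevalonate kinase, rose less, by 1.37 ± 0.45 (adjusted p = 0.021), and lost its call with the array set as a term (adjusted p = 0.314), without 0 h replicate 1 (1.24, adjusted p = 0.0733) and without 12 h replicate 1 (1.20, adjusted p = 0.0793).

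Fdft1, squalene synthase and the first enzyme committed to sterols, read -7, -3 and 64 at 0 h and 795, 824 and 957 at 12 h. Only 1 of its 0 h arrays exceeded 30, and the log2 change was 5.97 ± 0.63. Sqle, the squalene epoxidase, read 5, 20 and 24 at 0 h and 621, 750 and 660 at 12 h and rose to at least 22.5-fold above 30. Lss, which closes the sterol ring, read 32, 22 and 37 at 0 h and 564, 576 and 517 at 12 h, a change of 4.22 ± 0.40 (adjusted p = 3.1e-08). Cyp51, the demethylase of lanosterol, read -30, -14 and 22 at 0 h and 678, 663 and 739 at 12 h and stood at least 23.1-fold above 30 after refeeding. The later steps followed. Msmo1, the C4-methylsterol oxidase, rose by 5.75 ± 0.52, and Nsdhl, the dehydrogenase that acts after it, by 4.29 ± 0.45. Sc5d, the sterol C5 desaturase, rose by 4.30 ± 0.32. Dhcr7, the last enzyme of the route through 7-dehydrocholesterol, read -6, -7 and -3 at 0 h and 240, 217 and 260 at 12 h and rose to at least 7.95-fold above 30. Hsd17b7, a ketosteroid reductase, and Ebp, the sterol isomerase, rose by 1.65 and 1.03. The exception was Tm7sf2, a sterol C14 reductase, which read 292, 292 and 289 at 0 h and 286, 266 and 273 at 12 h (log2 change -0.08 ± 0.11, adjusted p = 0.617). Lbr, the lamin B receptor that carries the same reductase activity, read -14, 3 and -7 at 0 h and 44, 38 and 45 at 12 h, a rise of 2.74 ± 0.47 that did not pass with the array set as a term (adjusted p = 0.144).

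**Figure D1:**
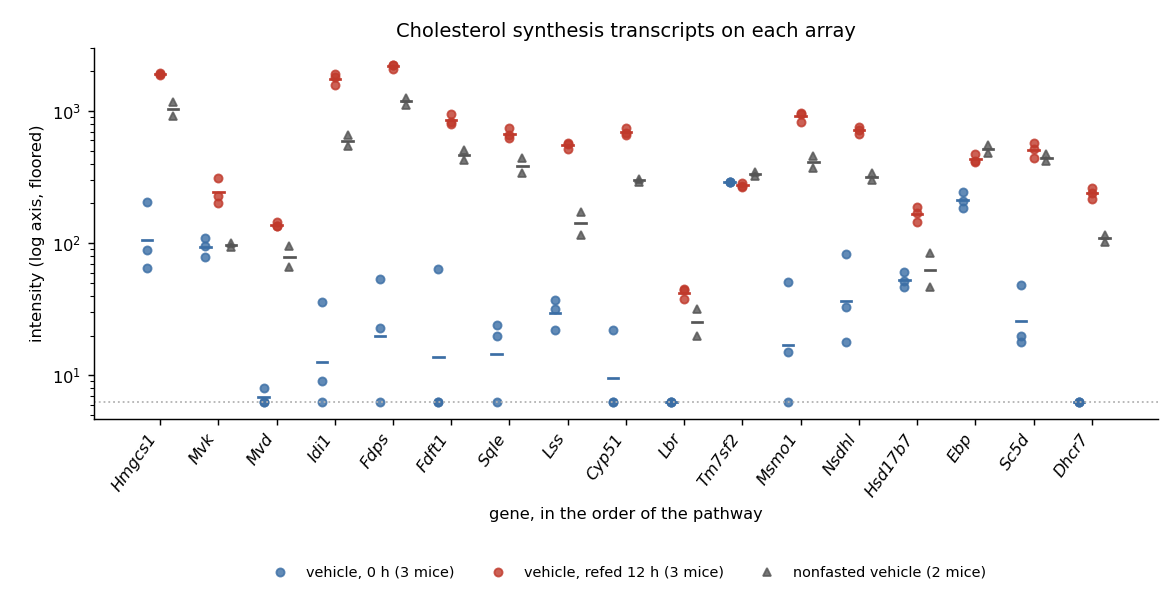
Intensity on each array (log axis, values under 6.31 drawn at 6.31, dotted line) of 17 genes of cholesterol synthesis in the order of the pathway, for vehicle mice at 0 h, vehicle mice refed for 12 h and nonfasted vehicle mice. Short bars are means of the logged values. For Idi1 the 12 h arrays sit between 1564 and 1904 and the 0 h arrays at 36 or below, while Tm7sf2 lies at 266 to 292 in both groups.

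Genes that move sterols did not follow. Of 10 sterol uptake, sensing and export genes tested none rose and 3 fell, 2 of the falls in all 4 fits. Among all probe sets 26% rose and 9.3% fell, 7.83% and 3.87% in all 4 fits. The list had 1 rise without 0 h replicate 3, 2 falls without 12 h replicate 1, and 4 falls with 1 trimmed mean. Npc1, which releases cholesterol from lysosomes, read 598, 446 and 421 at 0 h and 211, 175 and 192 at 12 h, a log2 change of -1.33 ± 0.16. Abcg1, a cholesterol exporter, read 176, 165 and 157 at 0 h and 74, 76 and 73 at 12 h, a change of -1.16 ± 0.26. Both groups of arrays were separate for both genes, and both falls held in all 4 fits. The median over the list was -0.07.

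The start sites of these genes show what the promoters share. The stretch from 250 bases before to 50 bases after each start site was taken from RefSeq (GRCm38.p6), and 14 of the 17 tested genes of both cholesterol lists had an entry. The CCAAT box, the letters CCAAT on either strand, stood in 14 of these 14, against 41.1% of 27025 genes with an entry. The form TCACNCCAC of the sterol regulatory element, to which SREBP binds, stood in 1 of 14, that of Hmgcs1, against 1.44% of genes. The E-box CACGTG stood in 3 of 14 against 8.09% of genes. These counts describe the letters in these windows, and other forms of an element were not searched. The 4 promoters below belong to genes among the largest rises, in lower case with CCAAT boxes of either strand (a reverse copy reads ATTGG) and the TCACNCCAC match in capitals. The positions are chr13:8885356-8885655 (plus strand) for Idi1, chr8:64733529-64733828 (minus strand) for Msmo1, chr5:4104648-4104947 (minus strand) for Cyp51 and chr13:119690101-119690400 (plus strand) for Hmgcs1.
Idi1: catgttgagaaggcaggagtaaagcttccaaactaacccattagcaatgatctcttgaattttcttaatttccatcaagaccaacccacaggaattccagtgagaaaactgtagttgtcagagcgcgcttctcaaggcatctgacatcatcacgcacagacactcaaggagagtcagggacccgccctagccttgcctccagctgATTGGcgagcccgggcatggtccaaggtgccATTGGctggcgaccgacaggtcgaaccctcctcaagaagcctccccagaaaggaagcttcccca
Msmo1: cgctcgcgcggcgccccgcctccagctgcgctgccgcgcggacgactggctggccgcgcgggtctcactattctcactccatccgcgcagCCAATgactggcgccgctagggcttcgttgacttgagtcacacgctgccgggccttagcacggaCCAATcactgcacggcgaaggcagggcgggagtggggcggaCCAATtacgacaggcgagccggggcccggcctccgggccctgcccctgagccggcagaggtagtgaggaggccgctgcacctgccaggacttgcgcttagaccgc
Cyp51: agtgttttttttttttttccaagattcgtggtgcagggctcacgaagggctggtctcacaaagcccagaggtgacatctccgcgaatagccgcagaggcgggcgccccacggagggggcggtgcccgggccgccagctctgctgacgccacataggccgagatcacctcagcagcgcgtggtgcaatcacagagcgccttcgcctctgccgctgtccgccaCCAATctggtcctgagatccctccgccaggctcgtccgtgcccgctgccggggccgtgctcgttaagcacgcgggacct
Hmgcs1: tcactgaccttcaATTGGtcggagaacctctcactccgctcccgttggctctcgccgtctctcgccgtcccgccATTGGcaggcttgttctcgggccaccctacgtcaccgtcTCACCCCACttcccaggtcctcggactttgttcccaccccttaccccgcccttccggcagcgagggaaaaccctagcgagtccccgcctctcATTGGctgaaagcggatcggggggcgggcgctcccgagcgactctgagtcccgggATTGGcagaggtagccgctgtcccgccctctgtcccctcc
Idi1 holds 2 reverse CCAAT boxes whose first bases lie 45 and 14 bases before the start site. Msmo1 holds 3 and Cyp51 1. Hmgcs1 holds 4 reverse copies, and its TCACNCCAC match begins 137 bases before the start, between the copies at 176 and 45 bases.

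Fatty acid synthesis rose in 8 of 14 genes, 7 of them in all 4 fits, while 2 fell. Among all probe sets 26% rose, 7.83% in all 4 fits, and 9.3% fell. Fasn, which assembles palmitate, read -7, 52 and 67 at 0 h and 833, 1555 and 1106 at 12 h. Its groups were far apart, and its log2 change was 5.33 ± 0.57 (adjusted p = 1.7e-07). Acly, which splits citrate into cytosolic acetyl-CoA, read 135, 89 and 146 at 0 h and 589, 644 and 655 at 12 h, a change of 2.38 ± 0.20 (adjusted p = 4.4e-09). Slc25a1, the carrier that brings that citrate out of mitochondria, rose by 1.05 ± 0.15. Elovl6, which lengthens palmitate, read 6, 3 and 45 at 0 h and 275, 442 and 309 at 12 h, a change of 4.78 ± 0.52, and Mid1ip1 and Thrsp, related activators of lipogenesis, rose by 4.66 and 3.58. Fads1, the delta-5 desaturase of polyunsaturated fatty acids, rose by 0.94. Srebf1, the gene of the transcription factor SREBP-1, read 94, 57 and 48 at 0 h and 327, 674 and 599 at 12 h. Its groups did not overlap and its change was 3.00 ± 0.66 (adjusted p = 0.00111), but the change was 1.98 and did not pass with the array set as a term (adjusted p = 0.171).

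Not all of fat synthesis rose. Scd1, the desaturase that makes oleate, read 617, 634 and 1071 at 0 h and 288, 1442 and 732 at 12 h, and the groups overlapped (-0.15 ± 0.49, adjusted p = 0.845). Elovl5, which lengthens polyunsaturated fatty acids, read 2931, 2520 and 2839 at 0 h and 1402, 1082 and 1276 at 12 h, a fall of 1.15 ± 0.16 that held in all 4 fits. The other fall of the list ended without 0 h replicate 1, 0 h replicate 3, 12 h replicate 1 or 12 h replicate 2. In triglyceride metabolism 4 of 19 genes rose and 6 fell, against 26% and 9.3% of all probe sets. Gpam, which adds the first acyl chain to glycerol phosphate, read 327, 330 and 305 at 0 h and 647, 859 and 662 at 12 h, a rise of 1.16 ± 0.14 (adjusted p = 5.7e-07). Lpin1, a phosphatidate phosphatase and coactivator, read 1035, 1024 and 723 at 0 h and 53, 86 and 88 at 12 h. It was among the largest falls, at -3.63 ± 0.36 (adjusted p = 5.8e-08), and its relative Lpin2 fell by 1.68. Pnpla2, the first lipase of lipid droplets, read 765, 710 and 426 at 0 h and 166, 122 and 162 at 12 h, a change of -2.05 ± 0.28.

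Genes of glucose production fell. Of 12 gluconeogenic and insulin-repressed genes 8 fell, 5 of them in all 4 fits, and none rose, against 9.3% and 3.87% of all probe sets that fell. The list's median log2 change was -1.38, or -0.59 with a floor of 30. With the baseline averaged over vehicle 0 h and uninjected fasted mice it was -0.90, with 8 falls. Igfbp1, a binding protein for insulin-like growth factors that insulin represses, read 3801, 3850 and 992 at 0 h and 23, 32 and 36 at 12 h. The groups lay far apart although 0 h replicate 3 was much lower than the other 0 h arrays, and the log2 change of -6.35 ± 0.69 (adjusted p = 1.9e-07) was the largest fall in all 4 fits. Pck1, the carboxykinase that commits oxaloacetate to glucose, read 2724, 2490 and 2357 at 0 h and 545, 427 and 813 at 12 h, a change of -2.13 ± 0.31 (adjusted p = 1.2e-05). G6pc, the phosphatase that frees glucose, read 2394, 1221 and 1260 at 0 h and 274, 361 and 414 at 12 h, a change of -2.16 ± 0.35 (adjusted p = 4.6e-05). Slc37a4, which brings glucose 6-phosphate to that phosphatase, fell by 1.23, and Cebpb, a transcription factor of gluconeogenic genes, by 1.86. Pcx, pyruvate carboxylase, fell by 0.53, although not with the array set as a term (adjusted p = 0.207). Fbp1, fructose bisphosphatase, read 2763, 2389 and 2831 at 0 h and 2394, 2400 and 2532 at 12 h, and its groups overlapped (-0.12 ± 0.10, adjusted p = 0.368). Gcgr, the glucagon receptor, likewise did not pass (0.17 ± 0.19). The insulin response motif CAAAACA stood in 3 of 11 promoters of this list against 7.2% of genes, and once in that of Igfbp1 (RefSeq, GRCm38.p6, chr11:7197537-7197836, plus strand), in capitals below, with its first base 108 bases before the start site.
Igfbp1: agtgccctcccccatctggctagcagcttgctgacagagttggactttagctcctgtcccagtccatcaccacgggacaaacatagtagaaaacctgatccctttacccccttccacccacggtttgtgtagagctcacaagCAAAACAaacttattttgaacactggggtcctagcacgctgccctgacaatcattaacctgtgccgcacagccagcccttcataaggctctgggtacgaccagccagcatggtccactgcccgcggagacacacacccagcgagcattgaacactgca

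Genes induced by glucocorticoid in fasting fell in 10 of 18, 6 of them in all 4 fits, with 1 rise (none without 12 h replicate 1 or 12 h replicate 3). Among all probe sets 9.3% fell, 3.87% in all 4 fits. Klf9, a transcription factor that glucocorticoid induces directly, read 514, 386 and 377 at 0 h and 102, 83 and 115 at 12 h. Every 12 h array lay below every 0 h array, and the change of -2.09 ± 0.16 (adjusted p = 1.2e-09) held in all 4 fits. Zbtb16, another induced transcription factor, read 203, 273 and 261 at 0 h and 32, 32 and 24 at 12 h, a change of -3.07 ± 0.52. Cdkn1a, the cell cycle inhibitor p21, read 276, 335 and 127 at 0 h and 12, 0 and 8 at 12 h, at least 7.58-fold below with 30 as the 12 h level. Tat and Tdo2, which begin the breakdown of tyrosine and tryptophan, fell by 1.09 and 0.75. Sgk1, a kinase induced by steroid hormones, fell by 1.36 (without 0 h replicate 1 by 0.87). Ddit4, an inhibitor of mTORC1 that stress induces, read 950, 852 and -35 at 0 h and -16, -2 and -1 at 12 h, so 0 h replicate 3 lay below every 12 h array, and all 4 of these values are under the floor. The same array was low for Lepr, the leptin receptor, which read 270, 229 and 23 at 0 h and 11, 11 and -1 at 12 h, and for Gadd45g, a stress gene of growth arrest, which read 350, 241 and 21 at 0 h and 17, 16 and 31 at 12 h. In uninjected fasted mice the mean was 35.8 for Ddit4 and 53.6 for Lepr. Their changes of -4.77 ± 1.26 and -3.62 ± 0.70 passed with all arrays (adjusted p = 0.00496 and 0.0003), but that of Ddit4 did not with the array set as a term (adjusted p = 0.0907) and that of Lepr did not with that term and a floor of 30 (adjusted p = 0.132). Gadd45g had a change of -2.57 ± 0.88 (adjusted p = 0.0248) that did not pass without 0 h replicate 1 (adjusted p = 0.157), 0 h replicate 2 (0.109), 12 h replicate 1 (0.0673) or 12 h replicate 2 (0.0737).

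Fatty acid oxidation and ketogenesis fell in 22 of 32 genes and rose in 2, while 8 fell and 1 rose in all 4 fits. The falls stand against 9.3% of all probe sets, and 3.87% in all 4 fits. The median log2 change was -0.60, or -0.44 once the array set was a term. Cpt1a, the gate of mitochondrial fatty acid entry, read 1627, 1339 and 1526 at 0 h and 761, 523 and 907 at 12 h, a change of -1.07 ± 0.17 (adjusted p = 4e-05). Acot1, a cytosolic acyl-CoA thioesterase and PPARα target, read 353, 422 and 323 at 0 h and 67, 30 and 60 at 12 h. It fell by 2.88 ± 0.32 (adjusted p = 2.3e-07), the most within the list. Ehhadh, the bifunctional enzyme of peroxisomal oxidation, read 601, 597 and 574 at 0 h and 243, 106 and 163 at 12 h, a change of -1.87 ± 0.33, and Angptl4, a PPARα-induced inhibitor of lipoprotein lipase, fell by 1.74. Vnn1, a pantetheinase that PPARα also induces, fell by 1.47, and Eci2, an enoyl-CoA isomerase, by 1.09. The microsomal omega-hydroxylases Cyp4a10 and Cyp4a14 were bright in both groups. Cyp4a10 read 3059, 2743 and 2944 at 0 h and 1978, 2076 and 1720 at 12 h and Cyp4a14 read 3507, 3398 and 3509 at 0 h and 2483, 2381 and 2301 at 12 h, falls of 0.60 and 0.54. The core of mitochondrial β-oxidation was not uniform. Acadm fell by 0.45, a call lost without 0 h replicate 1, 0 h replicate 3 or 12 h replicate 2. Acads had a change of 0.96 that was not called in all 4 fits, and its second probe set did not pass (-0.05, adjusted p = 0.913). Acaa2, the thiolase of this core, read 2604, 2771 and 2733 at 0 h and 2695, 2505 and 2703 at 12 h. Hadhb, the thiolase subunit of the trifunctional protein, read 994, 835 and 985 at 0 h and 941, 693 and 856 at 12 h. Their groups overlapped, and neither passed (-0.04 ± 0.09 and -0.18 ± 0.13). Ppara, the gene of PPARα itself, did not pass either (-0.21 ± 0.17). The rise held in all 4 fits was Abcd2, a peroxisomal fatty acid transporter, which read -13, -25 and 13 at 0 h and 70, 60 and 80 at 12 h and stood at least 2.32-fold above 30.

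**Figure D2:**
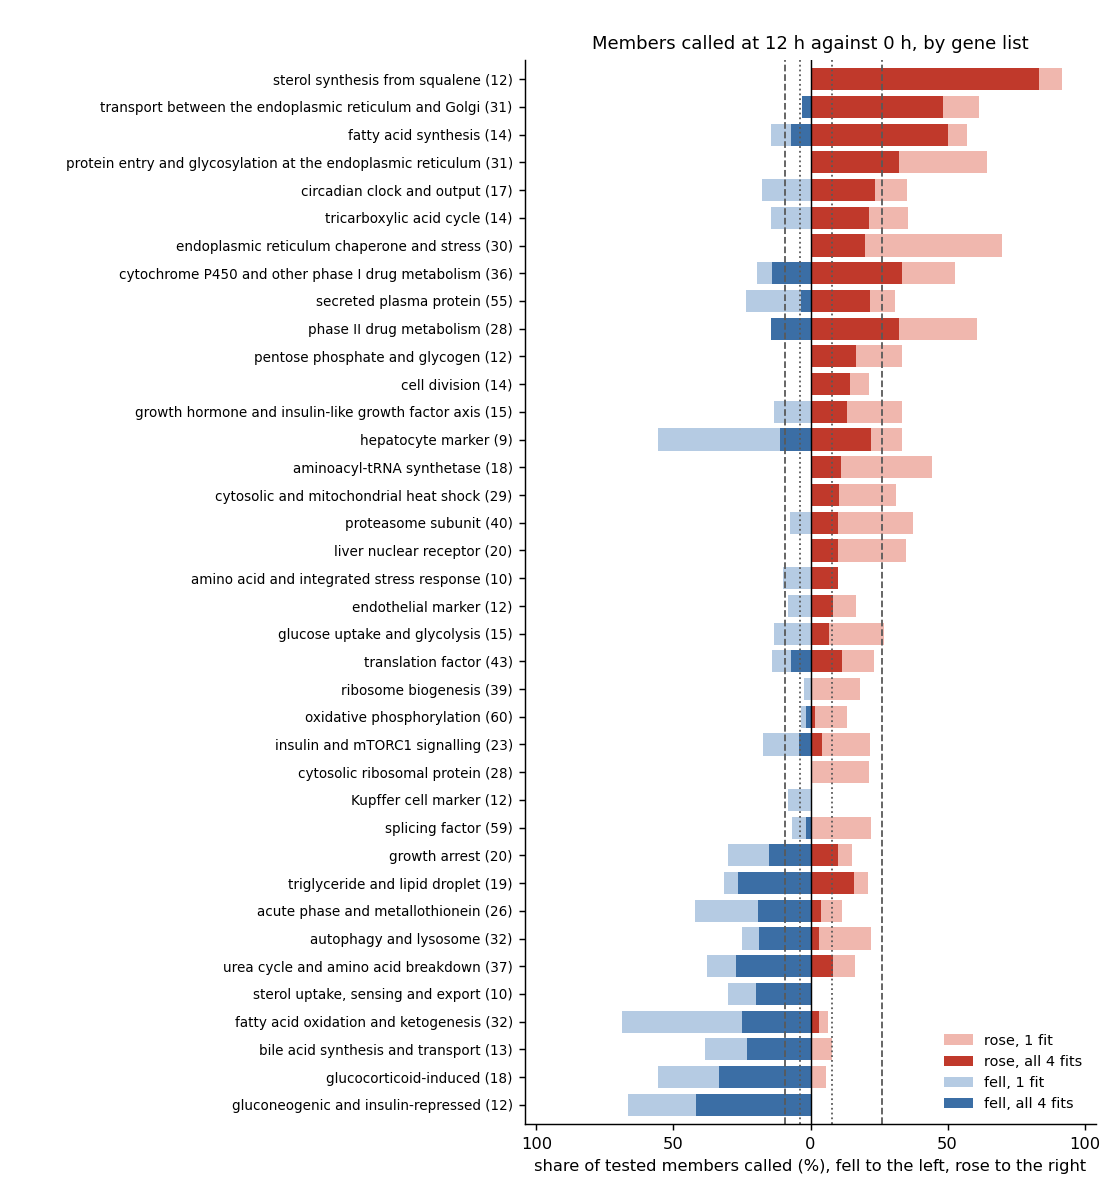
Share of the tested members of each gene list with at least 9 tested members (number in brackets) that fell (left) or rose (right) at 12 h against 0 h, in 1 fit (pale) and in all 4 fits (dark), ordered by the difference of the dark shares. Dashed lines mark the shares of all probe sets in 1 fit (26% and 9.3%) and dotted lines those in all 4 fits (7.83% and 3.87%). Sterol synthesis stands at the top, with 11 of 12 members called as rises, and gluconeogenic genes at the bottom, with 8 of 12 called as falls.

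Genes of the path of secreted proteins rose more often than all probe sets (26%, and 7.83% in all 4 fits). Of 31 genes of transport between the endoplasmic reticulum and the Golgi 19 rose and 1 fell, 15 and 1 in all 4 fits. With every array scaled to 1 trimmed mean 14 rose and 2 fell. Copz1, a subunit of the COPI vesicle coat, read 177, 99 and 179 at 0 h and 447, 471 and 493 at 12 h. Every 12 h array lay above every 0 h array, and the change was 1.68 ± 0.18 (adjusted p = 1.6e-07). Of the other COPI subunits Copg1 rose by 1.45, Cope by 1.41, Arcn1 by 1.34, Copa by 0.89 and Copb2 by 0.68, all in 4 fits. Arf1, the small GTPase that recruits the coat, read 836, 639 and 910 at 0 h and 1302, 1480 and 1279 at 12 h, a change of 0.78 ± 0.11. On the outward route Sec23b, of the COPII coat, read -16, 4 and 13 at 0 h and 194, 276 and 163 at 12 h and stood at least 6.86-fold above 30. Sec13, of the outer COPII coat, rose by 0.99. Lman1 and Mcfd2, which together carry clotting factors V and VIII out of the endoplasmic reticulum, rose by 0.89 and 0.88. The fall was Sar1b, the GTPase of COPII needed for chylomicron export in the intestine, which read 495, 424 and 375 at 0 h and 286, 205 and 233 at 12 h (-0.84 ± 0.24), and its second probe set was called as a rise. Kdelr1, which returns escaped residents, did not pass (-0.04 ± 0.13).

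Of 31 genes of protein entry and glycosylation at the endoplasmic reticulum 20 rose and none fell, 10 in all 4 fits. Without 12 h replicate 2 the count was 13, and with 1 trimmed mean 9 rose and 2 fell. Ostc, a subunit of the oligosaccharyltransferase, read 36, 48 and 59 at 0 h and 279, 309 and 236 at 12 h, a change of 2.55 ± 0.22 (adjusted p = 6.7e-09). Sec61b, of the translocation channel, read 92, 72 and 94 at 0 h and 280, 338 and 244 at 12 h, a change of 1.74 ± 0.22, and Ssr2, of the translocon-associated complex, rose by 2.34. The groups were separate for these genes, and their rises held in all 4 fits. Chaperones and stress genes of this organelle rose in 21 of 30 and fell in none, but in all 4 fits only 6 rose. With 1 trimmed mean the counts were 14 and 1. Pdia6, a disulfide isomerase, read 42, 68 and 69 at 0 h and 351, 512 and 314 at 12 h, a change of 2.72 ± 0.38 (adjusted p = 6.9e-06), and Ppib, a prolyl isomerase, rose by 1.45 ± 0.18. Hspa5, the main chaperone BiP, read 676, 947 and 977 at 0 h and 1278, 1442 and 1215 at 12 h. Its rise of 0.61 ± 0.19 passed with all arrays (adjusted p = 0.015), but not with the array set as a term (0.07, adjusted p = 0.896), without 0 h replicate 1 (adjusted p = 0.107) or without 12 h replicate 2 (adjusted p = 0.0613). Xbp1, a transcription factor of this stress response, likewise passed only without the term (0.73 ± 0.17, and 0.25 with it).

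Plasma proteins themselves moved both ways. Of 55 secreted plasma protein genes 17 rose and 13 fell, 12 and 2 in all 4 fits. Among all probe sets 26% rose and 9.3% fell, 7.83% and 3.87% in all 4 fits. Falls held in all 4 fits were thus no more frequent here than among all probe sets. Without 0 h replicate 2 the falls numbered 8, and with 1 trimmed mean 9 rose and 28 fell, while after quantile normalization 16 rose and 5 fell. Lect2, a secreted hepatokine, read -55, -1 and -30 at 0 h and 414, 546 and 465 at 12 h and stood at least 15.7-fold above 30. Serpina6, the carrier of glucocorticoid in plasma, read 109, 219 and 230 at 0 h and 1090, 891 and 1367 at 12 h, a change of 2.64 ± 0.30 (adjusted p = 4.3e-07). Ttr, the carrier of thyroxine and of retinol-binding protein, read 329, 316 and 413 at 0 h and 1004, 865 and 1010 at 12 h. It more than doubled, with a change of 1.45 ± 0.17 (adjusted p = 4.1e-07) and no overlap. Klkb1, prekallikrein, and Serpind1, a thrombin inhibitor, rose by 1.70 and 1.24. The falls held in all 4 fits were small, -0.49 ± 0.08 for Plg, plasminogen, and -0.47 ± 0.11 for Mup3, a major urinary protein whose probe set may not separate it from its close relatives. Acute phase and metallothionein genes fell in 11 of 26 and rose in 3. Mt1, a metal-binding metallothionein, read 2053, 4665 and 2036 at 0 h and 67, 1125 and 183 at 12 h, so the arrays within both groups differed widely. Its change was -3.49 ± 0.72 (adjusted p = 0.00058). Lbp, which binds bacterial lipopolysaccharide, fell by 1.44 ± 0.21, and Il6ra, the receptor for interleukin 6, by 2.15 ± 0.39. Serpina10, an inhibitor of clotting factor X, rose by 1.37 ± 0.20.

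Drug metabolism genes rose more often than they fell, as did all probe sets (26% and 9.3%, and 7.83% and 3.87% in all 4 fits). Of 36 phase I genes 19 rose and 7 fell (12 and 5 in all 4 fits), and of 28 phase II genes 17 rose and 4 fell (9 and 4). With 1 trimmed mean the phase I counts were 10 and 9 and the phase II counts 14 and 5. Adh1, the main alcohol dehydrogenase of liver, read 743, 969 and 1041 at 0 h and 2862, 3531 and 2989 at 12 h. The groups were separate, and the change was 1.78 ± 0.14 (adjusted p = 1.9e-09). Adh4 rose by 2.32 and Aldh1a7, an aldehyde dehydrogenase, by 2.10. Cyp1a2, which metabolises caffeine, read 56, 12 and 73 at 0 h and 758, 801 and 995 at 12 h, a change of 4.53 ± 1.15 (adjusted p = 0.00373). Cyp2b10, a target of the xenobiotic receptor CAR, went the other way and read 1432, 2093 and 1223 at 0 h and 431, 411 and 550 at 12 h, a change of -1.74 ± 0.30. Cyp3a13 fell by 0.93. Among conjugating enzymes Mgst3, a microsomal glutathione transferase, read -2, 10 and -23 at 0 h and 149, 183 and 170 at 12 h and stood at least 5.56-fold above 30. Sult1d1, a sulfotransferase, fell by 1.48. Members of the glutathione transferase and cytochrome P450 families are close in sequence, and probe sets may not separate them.

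Of 13 bile acid genes 5 fell and 1 rose, 3 and 0 in all 4 fits (without 0 h replicate 3, 4 rose, and without 0 h replicate 1, none). Among all probe sets 9.3% fell and 26% rose, 3.87% and 7.83% in all 4 fits. Cyp8b1, which directs synthesis towards cholic acid, read 1675, 1715 and 1541 at 0 h and 514, 321 and 513 at 12 h, a change of -1.90 ± 0.23 (adjusted p = 7.8e-07). Abcb4, the exporter of phospholipid into bile, read 1029, 805 and 1014 at 0 h and 578, 416 and 491 at 12 h, a change of -0.94 ± 0.14. Cyp7a1, the rate-limiting enzyme, read 29, 137 and 273 at 0 h and 305, 224 and 513 at 12 h, and its groups overlapped (1.67 ± 0.72, adjusted p = 0.0726). Nr0b2, the repressor SHP of bile acid synthesis, was not above 6 on any of the 6 arrays. Nr1h3, the oxysterol receptor LXRα, read 117, 120 and 107 at 0 h and 233, 269 and 258 at 12 h, a rise of 1.14 ± 0.13 (adjusted p = 3.7e-07) that was the larger of 2 held in all 4 fits among 20 liver nuclear receptors, of which 7 rose in 1 fit.

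Urea cycle and amino acid breakdown fell in 14 of 37 genes and rose in 6, 10 and 3 in all 4 fits. The shares of all probe sets were 9.3% and 26%, and 3.87% and 7.83% in all 4 fits. Without 0 h replicate 2 only 2 rose. Asl, the lyase of the urea cycle, read 1086, 1207 and 1112 at 0 h and 563, 564 and 600 at 12 h, a change of -0.98 ± 0.21. Cdo1, which oxidises cysteine, read 2797, 2948 and 2949 at 0 h and 1287, 1567 and 1627 at 12 h, a change of -0.96 ± 0.11 (adjusted p = 5.4e-07). Cps1, the first enzyme of the urea cycle, fell by 0.36, but not with the array set as a term (adjusted p = 0.117). Against the list Glud1, glutamate dehydrogenase, read 421, 391 and 421 at 0 h and 920, 850 and 943 at 12 h. It rose by 1.14 ± 0.11 (adjusted p = 6.4e-08) with no overlap. In the tricarboxylic acid cycle Idh1 and Idh2, the NADP-linked isocitrate dehydrogenases, rose by 1.44 and 1.14, 2 of the 3 rises held in all 4 fits among 14 genes.

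Sugar metabolism was less uniform, and glycolysis genes rose about as often as all probe sets (26%, with 9.3% that fell). Of 15 genes of glucose uptake and glycolysis 4 rose and 2 fell (0 fell without 0 h replicate 1, and 1 without 0 h replicate 2, 12 h replicate 2 or 12 h replicate 3), and only Pgk1, phosphoglycerate kinase, held in all 4 fits (0.74 ± 0.12). The 2 probe sets of Pklr, liver pyruvate kinase, disagreed. The brighter read 78, 72 and 187 at 0 h and 166, 176 and 137 at 12 h and did not pass (0.64 ± 0.46, adjusted p = 0.291). The other read -37, -16 and 36 at 0 h and 144, 159 and 121 at 12 h, a rise of 3.64 ± 0.57 (adjusted p = 2.4e-05) that held in all 4 fits. In the pentose phosphate pathway Tkt, transketolase, read -21, 17 and -10 at 0 h and 132, 183 and 152 at 12 h and stood at least 5.14-fold above 30, and Taldo1, transaldolase, read 18, 29 and 8 at 0 h and 76, 64 and 85 at 12 h. Both groups of arrays were separate for both genes. Gbe1, the branching enzyme of glycogen, rose by 1.45 ± 0.30, but not with the array set as a term (adjusted p = 0.0829).

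Of 15 genes of the growth hormone and insulin-like growth factor axis 5 rose and 2 fell, against 26% and 9.3% of all probe sets, and 2 rose in all 4 fits. With 1 trimmed mean 2 rose and 2 fell. Igfals, the subunit that keeps insulin-like growth factors in plasma, read -28, -73 and -135 at 0 h and 263, 296 and 370 at 12 h and stood at least 10.2-fold above 30. Igf1 itself read 665, 902 and 623 at 0 h and 934, 1003 and 1077 at 12 h, a rise of 0.48 ± 0.15 (adjusted p = 0.0176) whose adjusted p was 0.0709 without 0 h replicate 1, 0.0868 without 0 h replicate 3 and 0.0678 without 12 h replicate 3. Without 0 h replicate 1 or 12 h replicate 3 the list held 2 rises, and without 0 h replicate 2 it held 3, and each of these left 1 fall. Car3, a carbonic anhydrase of fat and liver that was listed as an adipose marker, read 1, 49 and 131 at 0 h and 1565, 1496 and 1721 at 12 h, a change of 5.53 ± 0.78 (adjusted p = 7.6e-06), while Adipoq and Lep, the adipose hormones of that list, did not pass. Slc9a3r1, a scaffold of membrane transporters, rose by 4.74 ± 0.53.

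Clock genes moved with refeeding, and the 0 h and 12 h mice were killed 12 h of feeding apart, so time of day and refeeding cannot be told apart. Of 17 clock and output genes 6 rose and 3 fell, 4 and 0 in all 4 fits. For all probe sets the shares were 26% and 9.3%, and 7.83% and 3.87% in all 4 fits. Per2, a repressor of the core clock, read -7, -10 and -4 at 0 h and 54, 85 and 62 at 12 h and stood at least 2.19-fold above 30. Nr1d2, the repressor REV-ERBβ, read -1, -5 and 9 at 0 h and 75, 69 and 97 at 12 h, and Bhlhe40, another clock repressor, read -41, 6 and -28 at 0 h and 232, 236 and 225 at 12 h. In each of these genes no 0 h array exceeded 10, and all 12 h arrays lay above 50. Nampt, an NAD-synthesis enzyme under clock control, rose by 1.49 ± 0.24. Arntl, the activator BMAL1, read 76, 65 and 59 at 0 h and 50, 33 and 17 at 12 h (-1.13 ± 0.32, adjusted p = 0.00862), and lost its call without 12 h replicate 3 (adjusted p = 0.0933). The falls numbered 0 without that array and 1 without 12 h replicate 1. Nr1d1, REV-ERBα, overlapped between groups (0.22 ± 0.32).

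Genes of the machinery that makes and destroys proteins differed by list in how many changes held in all 4 fits. Among all probe sets 7.83% rose and 3.87% fell in all 4, and 26% and 9.3% in 1 fit. No ribosome biogenesis gene of 39 and no cytosolic ribosomal protein gene of 28 was called in all 4, and 7 and 6 rose in 1 fit, under the background of 26%. Without 0 h replicate 3 the ribosomal protein count of rises was 2, without 0 h replicate 2 it was 11, and with 1 trimmed mean it was 0. The biogenesis count was 4 without 0 h replicate 1, 3 without 12 h replicate 1 and 2 after quantile normalization. Rplp0, a protein of the ribosomal stalk, read 1282, 1430 and 1269 at 0 h and 1765, 1825 and 1653 at 12 h, a rise of 0.40 ± 0.09 that did not pass with the array set as a term (adjusted p = 0.102). Of 43 translation factors 10 rose and 6 fell, 5 and 3 in all 4 fits, and with 1 trimmed mean 5 rose and 12 fell. Eif3c and Eif3d, subunits of the initiation complex, rose by 0.74 and 1.16, and Gspt1, a termination factor, by 0.76. Eef1a2, an elongation factor form best known from muscle and nerve, fell by 0.68. Of 40 proteasome genes 15 rose and 3 fell, 4 and 0 in all 4 fits, among them Psme1, an activator subunit (1.40 ± 0.31), and without 12 h replicate 3 only 1 fell, while with 1 trimmed mean 8 fell. Of 60 oxidative phosphorylation genes 8 rose and 2 fell, but without 0 h replicate 3 the counts were 5 and 8, after quantile normalization 5 and 7, and with 1 trimmed mean 0 and 18. Of 59 splicing factors 13 rose and 4 fell, of which 1 fall held, and without 0 h replicate 2 there were 2 falls. After quantile normalization and with 1 trimmed mean alike 8 rose and 10 fell. Among 29 heat shock genes 9 rose, and Stip1, a co-chaperone, was among the 3 held in all 4 fits (2.19 ± 0.46). The count of 9 was 4 without 0 h replicate 2 and 5 without 12 h replicate 2 or 12 h replicate 3.

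Genes that hold back growth and drive autophagy fell in part. Among all probe sets 9.3% fell and 26% rose, 3.87% and 7.83% in all 4 fits. Ccng2, an unconventional cyclin of growth arrest, read 177, 179 and 80 at 0 h and 39, 12 and 25 at 12 h, a change of -2.59 ± 0.44 (adjusted p = 7e-05). Of 20 growth arrest genes 6 fell and 3 rose, and the rises held in all 4 fits were Gas6 and Gas2, at 2.09 ± 0.38 and 2.08 ± 0.32. The median log2 change of the growth arrest list was -0.49, or -0.23 with a floor of 30. With the baseline averaged over vehicle 0 h and uninjected fasted mice it was -0.05, with 8 falls and 3 rises. Of 32 autophagy and lysosome genes 8 fell and 7 rose, 6 and 1 in all 4 fits, and with 1 trimmed mean 10 fell and 3 rose. Map1lc3b, which coats the autophagosome, read 382, 332 and 223 at 0 h and 80, 98 and 116 at 12 h, a change of -1.65 ± 0.22 (adjusted p = 3.4e-06). Bnip3, a receptor of mitophagy, read 281, 334 and 275 at 0 h and 124, 119 and 132 at 12 h, a change of -1.24 ± 0.16. Atg2a, a lipid transfer protein of autophagosome growth, read 200, 252 and 347 at 0 h and -18, 18 and 37 at 12 h. Its 0 h arrays were at least 5 times as high as any 12 h array, and its change was -4.01 ± 0.77 (adjusted p = 0.0003). Retreg1, a receptor for the autophagy of endoplasmic reticulum, read 1217, 1312 and 685 at 0 h and 244, 188 and 223 at 12 h, a change of -2.25 ± 0.27. In insulin and mTORC1 signalling 5 of 23 genes rose and 4 fell, or 2 fell without 0 h replicate 1, 0 h replicate 2, 12 h replicate 1 or 12 h replicate 2. With 1 trimmed mean 4 rose and 7 fell. Pik3r1, the regulatory subunit of PI 3-kinase, read -9, -10 and 7 at 0 h and 67, 51 and 62 at 12 h and stood at least 1.99-fold above 30, the rise of this list held in all 4 fits. Irs2, the receptor substrate that fasting induces, read 118, 30 and -9 at 0 h and -56, -10 and -17 at 12 h, and its fall (-2.16 ± 0.74, adjusted p = 0.0261) did not pass when any one of 5 of the 6 arrays was left out (adjusted p from 0.0568 to 0.242), 0 h replicate 3 being the exception.

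The largest falls outside these lists were of varied kinds. Rgs16, a regulator of G protein signals, read 348, 980 and 420 at 0 h and 89, 83 and 68 at 12 h, a change of -2.72 ± 0.35. Slc25a47, a mitochondrial carrier of liver, read 1798, 1922 and 1613 at 0 h and 365, 384 and 447 at 12 h, a change of -2.16 ± 0.25 (adjusted p = 5.1e-07). Slc4a4, a bicarbonate transporter, fell by 2.46 ± 0.26. Gpcpd1, a glycerophosphocholine phosphodiesterase, read 191, 248 and 76 at 0 h and 11, 8 and 12 at 12 h, at least 5.11-fold below with 30 as the 12 h level. All of these held in the 4 fits.

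The same interval was measured in rapamycin mice, with no array in common and with all 6 arrays in the set of few values at or below 0. There 958 probe sets (14.6%) rose and 684 (10.4%) fell, and the median log2 change was -0.004. Of the 514 probe sets that rose in vehicle mice in all 4 fits 405 (78.8%) also rose under rapamycin, and of the 254 that fell 189 (74.4%) also fell, with none called in the opposite direction. For the 1191 rises called in the first fit but not in all 4 the share was 27.3%, and for the 357 such falls 44.8%. The median log2 change of the 514 was 1.24 in vehicle and 0.88 in rapamycin mice, and that of the 254 was -0.96 and -0.76. These probe sets had been chosen on the vehicle arrays, so a smaller median in the other arrays is no test of a difference. Idi1 changed by 7.11 in vehicle and 5.53 in rapamycin mice, Igfbp1 by -6.35 and -6.49, Pck1 by -2.13 and -2.48, and Per2 by 3.38 and 3.57. Srebf1, which lost its call with the array set as a term, rose by 4.35 within the single set of rapamycin arrays (adjusted p = 4e-05).

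The list counts under rapamycin stand against 14.6% of all probe sets that rose there and 10.4% that fell. Under rapamycin the genes of transport between endoplasmic reticulum and Golgi rose in 15 of 31, those of protein entry in 10 of 31 and the chaperones in 10 of 30, with 1 fall in each list. Sterol synthesis rose in 9 of 12 and gluconeogenic genes fell in 7 of 12. Hspa5 stood at 0.47 there and did not pass (adjusted p = 0.0746). The difference between the 2 responses was tested directly, and 26 of 6568 probe sets passed (0.396%), 14 with a floor of 30. For Lect2 the difference was 4.03 ± 1.14 (adjusted p = 0.0924), and for Rgs16 it was -1.78 ± 0.50 (adjusted p = 0.0887), so neither passed. Of the genes named here Hba-a1 and Cox7a2l passed. In this test the drug and the array set of the 0 h group cannot be told apart.

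**Figure D3:**
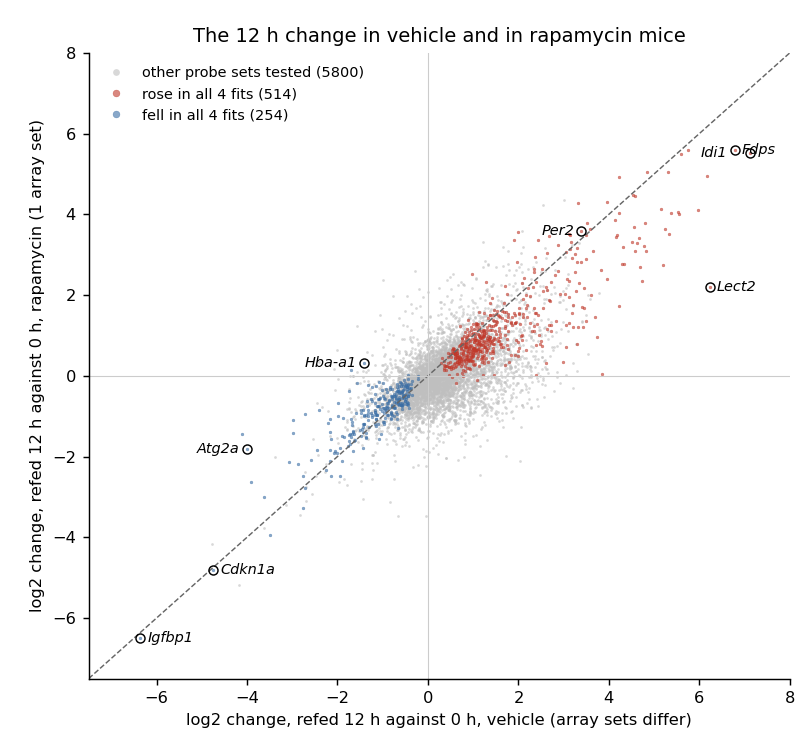
Log2 change from 0 h to 12 h of 6568 probe sets in vehicle mice (x axis) and in rapamycin mice (y axis), with those that rose (514) or fell (254) in all 4 fits in colour. The dashed line marks equal changes. Most coloured points lie on the same side of 0 on both axes, and Hba-a1 (-1.42 and 0.31) does not.

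Food for 12 h did not return every gene to the level of mice that had not been fasted. Vehicle mice at 12 h and nonfasted vehicle mice lie in the same array set, and 267 probe sets (4.07%) were higher at 12 h and 127 (1.93%) lower. This comparison was added after values were seen, has 2 nonfasted arrays, and shares the 12 h arrays with the one above. The mean of Idi1 was 1757 ± 175 (SD, n = 3) at 12 h and 599.5 ± 82.7 (n = 2) in nonfasted mice, a log2 difference of 1.55 that did not pass (adjusted p = 0.126). Lss was higher at 12 h by 1.96 (adjusted p = 0.0081) and Hsd17b7 by 1.40 (adjusted p = 0.00782). Cyp4a10 and Cyp4a14 were still far above the nonfasted level. Cyp4a10 averaged 1925 ± 184 at 12 h against 532 ± 172 (log2 difference 1.89, adjusted p = 4.8e-07), and for Cyp4a14 the difference was 1.56 (adjusted p = 7.6e-10). Ehhadh, the peroxisomal enzyme, was also higher, by 1.40 (adjusted p = 0.0213).

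Some genes lay lower after 12 h of food than without a fast. Igfbp1 averaged 30.3 ± 6.66 against 262 ± 49.5 (log2 difference -3.12, adjusted p = 0.0144). G6pc was lower by 1.61 (adjusted p = 0.0144), and Scd1 averaged 821 ± 582 against 2879 ± 48.1 (-2.10, adjusted p = 0.0215). Igf1 averaged 1005 ± 71.5 against 1734 ± 53.7 (-0.79, adjusted p = 0.00627), and Ghr, the growth hormone receptor, was lower by 0.82 (adjusted p = 0.0122). Atg2a was lower as well (-4.01, adjusted p = 0.00611), with a nonfasted mean of 264. Per2 and Nr1d2 were higher at 12 h by 3.38 and 3.08 (adjusted p = 1.2e-06 and 2.2e-05), and the hour at which either group was killed is not given in the sources used here. For Car3, Lect2, Ttr and Copz1 the differences were -0.07, 0.01, -0.14 and 0.11, and none passed.

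Levels at 3 and 6 h in vehicle mice are set against the same 0 h arrays and therefore only described. Igfbp1 stood at log2 changes of -7.98 at 3 h, -6.76 at 6 h and -6.35 at 12 h. Klf9 stood at -1.39, -1.31 and -2.09 at the same times. Both were well below their 0 h level at 3 h. Idi1 stood at 4.23, 6.50 and 7.11, and Fasn at 2.63, 4.35 and 5.33. Copz1 stood at 0.68, 1.25 and 1.68, so its value was higher at each later time. Cyp4a10 stood at -0.05, -0.23 and -0.60. The 6 h arrays belong to the same set as the 0 h arrays, and the 3 h arrays to that of the 12 h arrays.

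**Figure D4:**
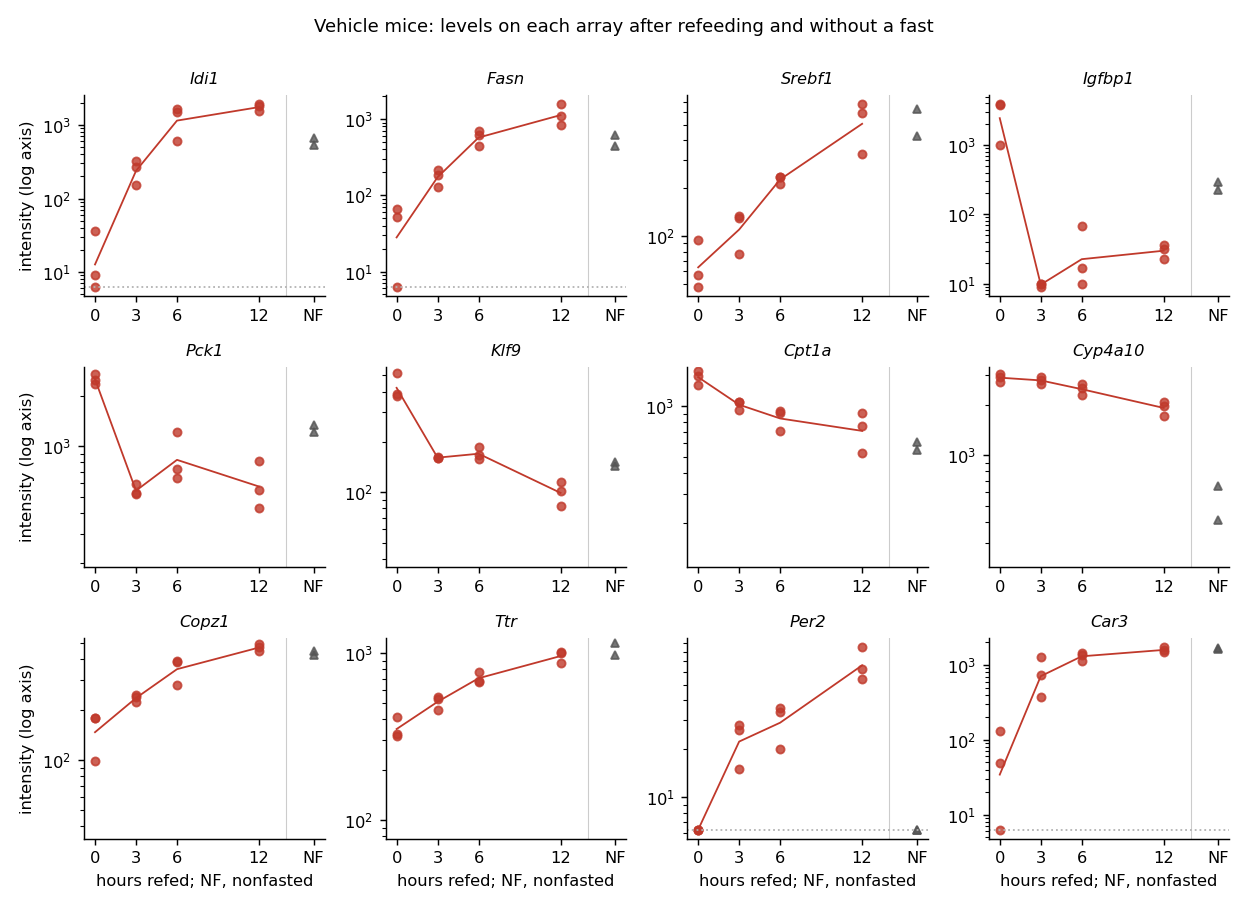
Intensity on each array (log axes, values under 6.31 drawn at 6.31, dotted line) of 12 genes in vehicle mice at 0, 3, 6 and 12 h of refeeding, with a line through the means of the logged values, and in nonfasted vehicle mice (NF, triangles). Igfbp1 is at its lowest at 3 h, Idi1 at 12 h lies above both nonfasted arrays, and Cyp4a10 at 12 h (1720 to 2076) has not come down to the nonfasted level.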

How the data were processed

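Liver RNA of 33 mice was measured on Affymetrix MG-U74Av2 arrays. Per the file headers, the deposited intensity of each probe set is the authors' scaled signal, which keeps values below 0, and the deposited detection calls (present, marginal or absent) come from a table whose experiment numbers no label names. Those calls were therefore used only to keep 6568 probe sets called present on at least 3 of 33 arrays, and 66 other per-array columns of that table were not used. Symbols came from the platform annotation, 1 for 10855 of 12488 probe sets, several for 396 and none for 1237, and symbols with entrez numbers in RefSeq needed no update. Mean intensities with values under 30 raised to 30 were 118 to 124 per array, so no further scaling was applied.

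Intensities under 6.31 were raised to 6.31 (0.1 of the trimmed mean, 2% off each side, averaged over arrays), logged to base 2 and fitted with limma 3.58.1 (R 4.3.3), with 11 group means, 22 residual degrees of freedom, eBayes and Benjamini-Hochberg adjustment over 6568 probe sets at 0.05. The method was tested on simulated data that had no array set effect and planted changes only in brighter probe sets. That test therefore cannot speak to the array set or to dim values. A gene is represented by the probe set with the highest mean over 33 arrays, and 776 genes had several, of which 15 had probe sets called in opposite directions. The arrays within a group correlated at 0.906 to 0.974, and the 3'/5' ratio of Gapdh was 0.947 to 1.01 on the 6 arrays. That of Actb was 1.20 to 1.65, with the highest value on 0 h replicate 2.

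The comparison, the 46 gene lists and the tests were chosen with earlier results of these data known. Genes were named by rule, 244 in all. The rule took the 15 largest rises and 15 largest falls with a floor of 30 among those called in 4 fits whose higher group exceeded 30 on each of its arrays, up to 5 called members of each list and up to 3 called against its majority, and 40 further genes (27 of them tested) whatever their p. A further 42 genes were named after their values were seen, and each of these is a list member. Replicate numbers did not pair the arrays, since deviations of same-numbered arrays correlated at -0.03, 0.07 and -0.12. Alternatives were the array set as a term, other floors and filters, 2 further scalings, trended and robust eBayes, a replicate block, only 6 arrays, a fasted baseline that includes uninjected mice, and leaving out each array. Promoters are RefSeq sequences of GRCm38.p6.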

Additional observations from a re-analysis of the deposited data

Results flagged for a closer look

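The response to 12 h of food differed between vehicle and rapamycin mice for 2 of the genes named here, by the test of the difference itself. For Hba-a1, a haemoglobin chain of red cells, the vehicle change minus the rapamycin change was -1.73 on the log2 scale, from -1.42 in vehicle mice and 0.31 in rapamycin mice. The 0 h vehicle arrays read 2926, 2069 and 1035 and the 12 h arrays 624, 687 and 762. For Cox7a2l, a respiratory chain assembly factor, the difference was -0.84, from -0.67 and 0.17. The 0 h vehicle arrays belong to the array set with many values at or below 0 and the 0 h rapamycin arrays to the other set, so array set and treatment cannot be told apart in this test.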

How the results depend on the processing

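The counts of rises and falls depend on the array set and on the scaling. Against 1705 rises and 611 falls, the array set as a term gave 632 and 391, that term with a floor of 30 gave 610 and 371, scaling to 1 trimmed mean gave 1111 and 1253, and only the 6 arrays gave 986 and 275. Quantile normalization gave 1019 falls. The log2 changes had a median of 0.24, and of 0.0276 with the term, 0 with a floor of 30, 0 with both, 0.0127 after quantile normalization, -0.004 after trimmed scaling, 0.14 with 2 times the floor and 0 with no detection filter. Leaving out 1 array gave 1420 to 1767 rises, 462 to 637 falls and medians of 0.17 to 0.30. A floor of 30 left 14 probe sets, not 26, whose response differed between vehicle and rapamycin. With the replicate number as a block 1689 rose and 597 fell, and the numbers do not pair the arrays. Of 262 named genes called, the term left 156 called in the same direction, the 6 arrays alone 172, trimmed scaling 228 and the replicate block 256. Some changes turned sign, Gab1 to -0.35 with the term and -0.0319 with floor and term, Atg7 to -0.17 with floor and term, Nr3c1 to -0.10 and Ahsg to 0.0776 after quantile normalization, and Rps3 to -0.0173 after trimmed scaling. The cause was not tested. For dim probe sets a level below 30 gives only a bound.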
